A study of Oryza sativa with 36 samples.

Results

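The probe sets described here were chosen by how far their signal in young panicles stood above that in leaves and roots of unstressed rice. On control arrays only, the mean log2 intensity in young panicles at booting was set against the highest of the 3 leaf and 2 root means, and the 200 probe sets with the largest margin were taken. The rule leaves out 7 named probe sets, 6 of which stood in the top 200, so that 194 of 57258 rice probe sets remained. They will be called panicle-enriched probe sets.

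RNA came from DK151, a drought tolerant line bred from IR64, and all 12 groups shared this genotype. At tillering and at panicle elongation both leaves and roots were sampled, while at booting the leaves were joined by young panicles. Control plants stood in watered tubes, and droughted plants had their solution drained until leaf relative water content had reached 65 to 75%. Each group had 3 arrays, each from an individual plant by the study's methods, so that 36 Affymetrix rice genome arrays were available. As a model the groups stand for a single tolerant line grown in tubes, with no sensitive line beside it, and a whole young panicle was measured rather than its parts.

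At booting the rice panicle is enclosed in the leaf sheath, and its florets hold young stamens and pistils. MADS-box transcription factors set the identity of the floral organs. Inside the anther, the tapetum is the cell layer that feeds the developing pollen, and it supplies the lipids and enzymes from which the pollen wall is built. Water shortage at this time is known for pollen sterility and loss of grain. A bulk panicle sample mixes all of these cells, so that fewer cells of a type and less RNA per cell cannot be told apart in any value below.

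The margins that chose the probe sets ran from 4.35 to 8.82 on the log2 scale (20.4- to 452-fold), with a median of 5.35. At the threshold, LOC4331706, LOC4351964, LOC4346846 and OsMADS4 lay just inside with margins of 4.37, 4.362, 4.354 and 4.348, and LOC4343615, LOC4338138, LOC4343861 and OsAffx.16813.1.S1_x_at just outside with 4.341, 4.339, 4.338 and 4.331. Mean control intensities in young panicles ran from 124.6 to 7981 with a median of 1524, against a median of 59.7 over all values of the table. Of the 194 probe sets, 158 matched 1 gene, 1 matched several and 35 matched none, and together they covered 145 genes. A name or a description could be given to 74, and 43 carry a suffix of the array maker for probes that can bind several transcripts.

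The margins and control levels follow from the rule and describe the set without testing it. The largest margin belonged to LOC4326388, which has no description in the sources used here. OsNIP4;1, a channel protein of the aquaporin family, had the largest margin among named genes, with 3316, 2266 and 2403 on the 3 control arrays. OsSWEET15, a sucrose transporter, had 3116, 2331 and 2244. OSH1, a homeobox gene of the shoot meristem, had 326.7, 284.1 and 222.7 on the dimmer of its 2 probe sets. Other probe sets with high margins were for a peroxidase (Os11g0210100), a laccase (Os05g0458600), a cellulase (Os03g0108300) and a protein with a lipid transfer domain (Os01g0814100). Oxidases such as laccases act on phenolic compounds of the cell wall, and cellulases loosen it.

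The label young panicle was checked against the floral organ identity genes. The 17 symbols of this list matched 15 probe sets. Of these, 6 belong to the set itself, OsMADS4, OsMADS5, OsMADS6, OsMADS7, OsMADS8 and OsMADS58, and were highest in control young panicles by the rule. Of the 9 others, 6 also had their highest control mean there. Leaf marker genes were also present, with 9 of 10 probe sets above the median of all values in control panicles, though none was highest there. Of the 12 meiosis probe sets 6 lay above that median and 4 were highest in control panicles, and of the 9 matched to the tapetum list 6 and 3. Some symbols of these lists, such as ZEP1, ZIP4 and TIP2, match several genes as synonyms, and every match was counted.

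Between the 3 arrays of each group the mean correlation was 0.96 to 0.991 over all rice probe sets, and the young panicle groups were the closest with 0.991 for control and 0.99 for drought. The panicle-enriched probe sets varied more between droughted panicles (median SD 0.35 on the log2 scale) than between control panicles (0.18), and over all probe sets the median SD was 0.13 and 0.14. The droughted panicle of replicate 2 stood apart. Of the 194 probe sets, 155 (79.9%) had their lowest droughted value on that array, against 40.4% of all probe sets, and 30 lay at least 2-fold under both other droughted panicles. The median intensity of the set was 429 on that array, 679 on replicate 1 and 682 on replicate 3. Results that rest on this array are given with and without it.

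The variation also ran the other way for a few genes. Os01g0127500, Os10g0524500, Os02g0101900 and Os02g0110000 had their highest droughted value on replicate 2, at least 2-fold above both other droughted panicles. Os10g0524500, described as a mandelonitrile lyase-like protein, gave 9.64, 57.5 and 4.58 on the 3 droughted arrays. Among the control panicles the largest spread was that of LOC4341367, with 171.3, 2057 and 2488, followed by Os05g0518300, a GDSL lipase, with 105.9, 261.8 and 447.2, and by LOC_Os03g56890 with 1870, 653.1 and 477.3. The control plants of the same group thus differed up to an SD of 2.15 on the log2 scale in a set whose median SD was 0.18.

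Under drought most panicle-enriched probe sets were lower in young panicles, by amounts that ranged from slight to large. A probe set is called changed here where limma, fitted over all 12 groups and all rice probe sets, gave a Benjamini-Hochberg adjusted p under 0.05 and a change of at least 5-fold (2.32 on the log2 scale). In young panicles 63 of the 194 (32.5%) were called lower and 0 higher, where 0.995% of all rice probe sets were called lower and 0.648% higher. Without the fold minimum 125 were lower and 7 higher at an adjusted p under 0.05, where 15.3% and 11.6% of all probe sets were. The median change of the set was -1.45 on the log2 scale, and that of all probe sets -0.04. The quartiles of the set were -2.98 and -0.36, so that the 5-fold minimum divides a continuous range.

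These counts are a description, because the control panicle arrays that enter each change also chose the set. Level matters as well. Among the 20006 probe sets with a control panicle level at or above that of the lowest member 2.78% were called lower, and among the 3126 at or above the median level of the set 6.62% were. The set was also chosen without a given control array, and the change was then taken from that array alone. So taken, 66, 62 and 64 probe sets were at least 5-fold lower for arrays 1, 2 and 3. The medians were -1.44, -1.44 and -1.50, with no test. These sets shared 188, 187 and 188 probe sets with the 194 and used the same droughted arrays, so close counts follow from the overlap. The shares over all rice probe sets were not computed. The share called lower did not follow the margin: from the largest margins to the smallest, in bands of 50 ranks, it was 14 of 48, 19 of 49, 16 of 48 and 14 of 49. Without the droughted panicle of replicate 2, 54 were called lower and the median was -1.25.

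**Figure D1:**
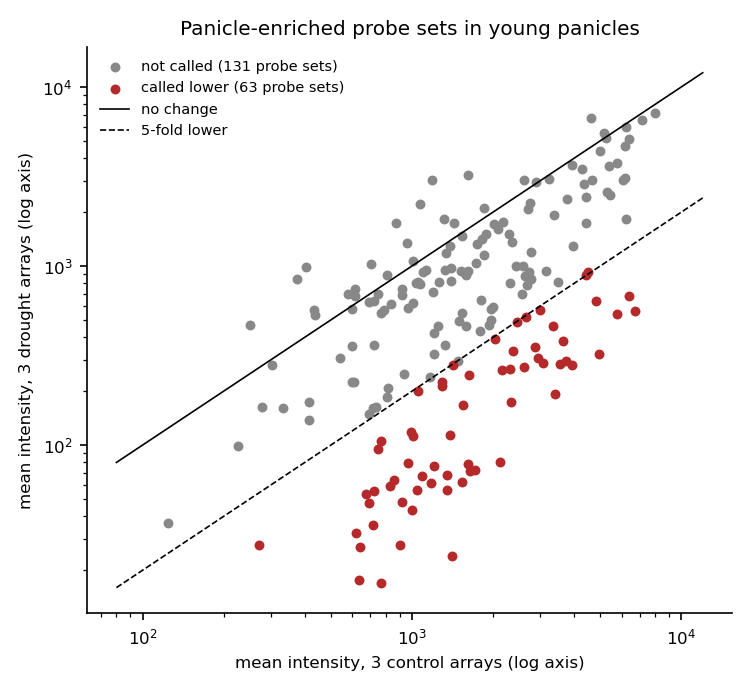
Mean intensity of the 194 panicle-enriched probe sets in young panicles, control on the x axis and drought on the y axis, both on log axes and each the mean of 3 arrays. The 63 probe sets called lower (red) lie along or below the dashed 5-fold line, to within the difference between arithmetic means and the log2 means that were tested, and the 131 others (grey) lie between it and a rise of 1.29 log2 units.

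The control and drought arrays did not overlap for 142 probe sets that were lower under drought and for 11 that were higher, where 26.7% and 21% of all rice probe sets behaved so. All 63 called probe sets were among the 142. Of the 63, 16 had a droughted mean under the median of all values, and 9 had all 3 droughted arrays under it. The 63 stood for 49 matched genes beside the unmatched probe sets. On the arrays themselves, the median log2 intensity of the 63 was 10.42 to 10.87 in control panicles and 6.66 to 7.15 in droughted panicles, and that of the other 131 was 10.44 to 10.63 and 9.33 to 9.97.

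**Figure D2:**
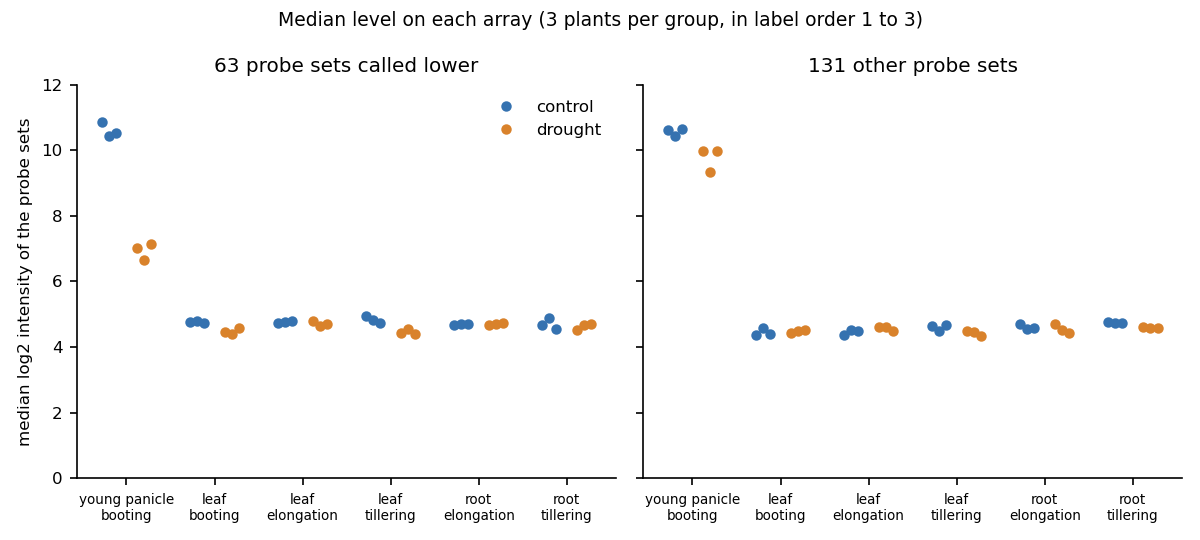
Median log2 intensity of the panicle-enriched probe sets on each of the 36 arrays, for the 63 called lower in young panicles (left) and the 131 others (right), with control in blue and drought in orange. In droughted panicles the 63 sit at 6.66 to 7.15, still above their medians of 4.4 to 4.95 in leaves and roots, and the 131 sit at 9.33 to 9.97.

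The largest falls belonged to genes of different kinds, several of them of unknown function. Os10g0524500, the mandelonitrile lyase-like protein, went from 1895, 1192 and 1153 to 9.64, 57.5 and 4.58 (log2 change -6.66 ± 0.49 SE, adjusted p = 1.42e-11). Os01g0127500, a conserved hypothetical protein, went from 1111, 650.9 and 547.2 to 6.52, 37.9 and 6.78 (-5.95 ± 0.44, adjusted p = 1.44e-11). In both, every droughted array lay far under every control array. With values under the 25th percentile of the table (28.3) raised to it, these changes were -5.26 and -4.56.

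Os02g0308400, with a fasciclin domain found in cell surface adhesion proteins, went from 574.7, 654.6 and 671.5 to 19.0, 17.2 and 16.6 (-5.17 ± 0.26, or -4.48 with the higher floor). Os03g0808000, a polygalacturonase, went from 1570, 552.1 and 575.4 to 34.9, 18.8 and 29.2 (-4.89 ± 0.26). Polygalacturonases cut pectin, the gel that holds plant cell walls together. Among the probe sets with a name or description, a further 8 completed the 12 largest falls, at log2 changes of -4.68 to -4.40: Os03g0345300, Os02g0101900 and Os08g0360700 of unknown function, Os01g0691300 with a lipid transfer domain, Os02g0110000 of the GDSL lipases, Os03g0239000 of glycoside hydrolase family 16, Os10g0150300 of the DUF1210 proteins, and Os04g0526000, described as PCF1. Rises could not be named in the same way, since no probe set was called higher.

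Names came from 2 sources that bear on these lists. The supplementary tables of the study, which list genes changed by drought on these same arrays, describe 58 of the 194 probe sets, and 56 of those 58 were called lower. Of the 136 not described there 7 were. Among the 25 named by the reference table, 6 were called lower and 0 higher, with a median change of -0.81. The counts by kind of protein below therefore lean to genes that fell, and the kinds were drawn up after the values had been seen.

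Of 14 probe sets for transcription factors and related regulators, drawn largely from the reference table, 2 were called lower and 0 higher, with a median of -0.74. The median was -0.81 over all reference-named probe sets and -0.71 over those not described in the supplementary tables. OsMADS8, a class E floral gene, read 2849, 2494 and 2882 in control and 2414, 2199 and 2131 in droughted panicles (-0.29 ± 0.15, adjusted p = 0.188). OsMADS4, which specifies petals (lodicules in rice) and stamens, read 2208, 1933 and 2420 against 1871, 1792 and 1628 (-0.31 ± 0.10, adjusted p = 0.0267). The ranges of both genes did not overlap, and the differences were far under the fold minimum.

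OsMADS5 and OsMADS7, further class E genes, changed by -0.36 ± 0.14 (adjusted p = 0.0625) and -0.31 ± 0.20 (adjusted p = 0.28). OsMADS6, known for its part in floral meristem and organ identity, had a larger difference of -0.74 ± 0.15 (adjusted p = 0.000404). OsMADS58, of the class C genes that act in stamens and carpels, fell by 0.81 on the log2 scale, from 647.8, 444.7 and 530.3 to 346.3, 316.5 and 260.2 (SE 0.24, adjusted p = 0.0128). Over the whole floral organ identity list of 15 probe sets 0 were called higher and 0 lower, the median change was -0.29, and the summed level ran from 26318 to 30140 in control and from 25028 to 27381 in droughted panicles.

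OSH1 was measured by 2 probe sets with changes of -0.75 ± 0.72 and -0.79 ± 0.32 and adjusted p of 0.528 and 0.0687. On both, every droughted panicle array lay under every control array, while the SE comes from the fit over all 12 groups. OsYABBY1, of the YABBY family of lateral organ genes, changed by -0.61 ± 0.23 (adjusted p = 0.0491). SPL18, of the SBP-box family, and NH5.2, a homologue of the defence regulator NPR1, were lower by more without reaching the fold minimum, at -1.52 ± 0.22 and -2.30 ± 0.19. The exceptions were Os04g0526000 at -4.40 ± 0.33, from 1463, 1081 and 997.7 to 71.6, 27.5 and 86.0, and OsMIF2, a mini zinc finger protein, at -2.35 ± 0.21. OsMIF2 came to -2.31 without the droughted panicle of replicate 2, just under the fold minimum. IAA14, a repressor of auxin response, stayed within 2-fold at 0.27 ± 0.29 (adjusted p = 0.576).

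GDSL lipases are a large plant family of esterases that act on lipids and on wall polymers. Of 8 probe sets 7 were called lower, with a median of -3.16, and 7 of the 8 are described in the supplementary tables. Of the 58 probe sets described there 56 were called lower, so the count does not stand for the family. Os02g0110000 went from 859.5, 563.5 and 432.1 to 13.96, 64.24 and 18.48 (-4.54 ± 0.33). Os10g0463200 went from 925.7, 553.2 and 591.1 to 47.3, 38.4 and 56.2 (-3.84 ± 0.20). Os05g0518300, whose control plants differed widely, reached only 26.8, 27.2 and 28.8 in the 3 droughted panicles (-3.07 ± 0.40). Both probe sets of LOC4334758 (Os03g0844600) were lower, at -2.40 and -1.79, and they differ in the call. The former came to -2.27 without control replicate 3 and to -2.21 without drought replicate 2.

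The same limit holds for the cell wall enzymes. Of 14 probe sets 13 were called lower, with a median of -3.65, and 12 of the 14 are described in the supplementary tables. The cellulase Os03g0108300 went from 4987, 4895 and 4931 to 417.8, 122.6 and 430.5 (-4.14 ± 0.30). Os03g0239000 of glycoside hydrolase family 16, a family that reshapes wall glucans, went from 1430, 1694 and 1805 to 73.7, 64.1 and 76.0 (-4.52 ± 0.16). The laccase LAC10 went from 6646, 5642 and 5071 to 580.4, 272.4 and 764.1 (-3.54 ± 0.42). A pectate lyase (Os04g0137100) and a pectin acetylesterase (Os10g0550500), which act on pectin, changed by -2.97 ± 0.20 and -2.73 ± 0.30. The latter came to -2.26 without the droughted panicle of replicate 2. OsGLU13, an endoglucanase, was lower at -1.58 ± 0.18 without reaching the fold minimum.

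Lipid transfer proteins and enzymes of wax and pollen wall lipids made up a further 9 probe sets, of which 7 were called lower (median -3.15) and 6 are described in the supplementary tables. Lipid transfer proteins carry lipid monomers to the cell surface. Os01g0691300 went from 1868, 1132 and 1064 to 51.4, 60.6 and 55.6 (-4.56 ± 0.24), and Os01g0814100 from 1981, 2158 and 2361 to 308, 216.1 and 261.5 (-3.06 ± 0.30). Os01g0529800, described as the very-long-chain fatty acid condensing enzyme CUT1, went from 907.9, 1118 and 948.4 to 114.7, 98.1 and 140.2 (-3.08 ± 0.42). Os10g0484800, described as anther-specific protein YY2, changed by -3.15 ± 0.20.

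The group includes 3 cytochrome P450 probe sets, at -3.27, -3.42 and -3.68. The first 2 are matched to LOC4337062 on chromosome 4, while the supplementary tables give the one at -3.27 the identifier Os03g0168600, which stands for chromosome 3, so that its gene is unsettled. The lipid transfer protein OsC4 read 4889, 3362 and 3592 in control and 1372, 1165 and 1363 in droughted panicles (-1.59 ± 0.22). The lipid transfer protein nsLTP2 went against the group, with 3888, 4740 and 5278 in control and 7009, 6679 and 6500 in droughted panicles. Its arrays did not overlap, but the difference did not pass the test (0.55 ± 0.28, adjusted p = 0.161).

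**Figure D3:**
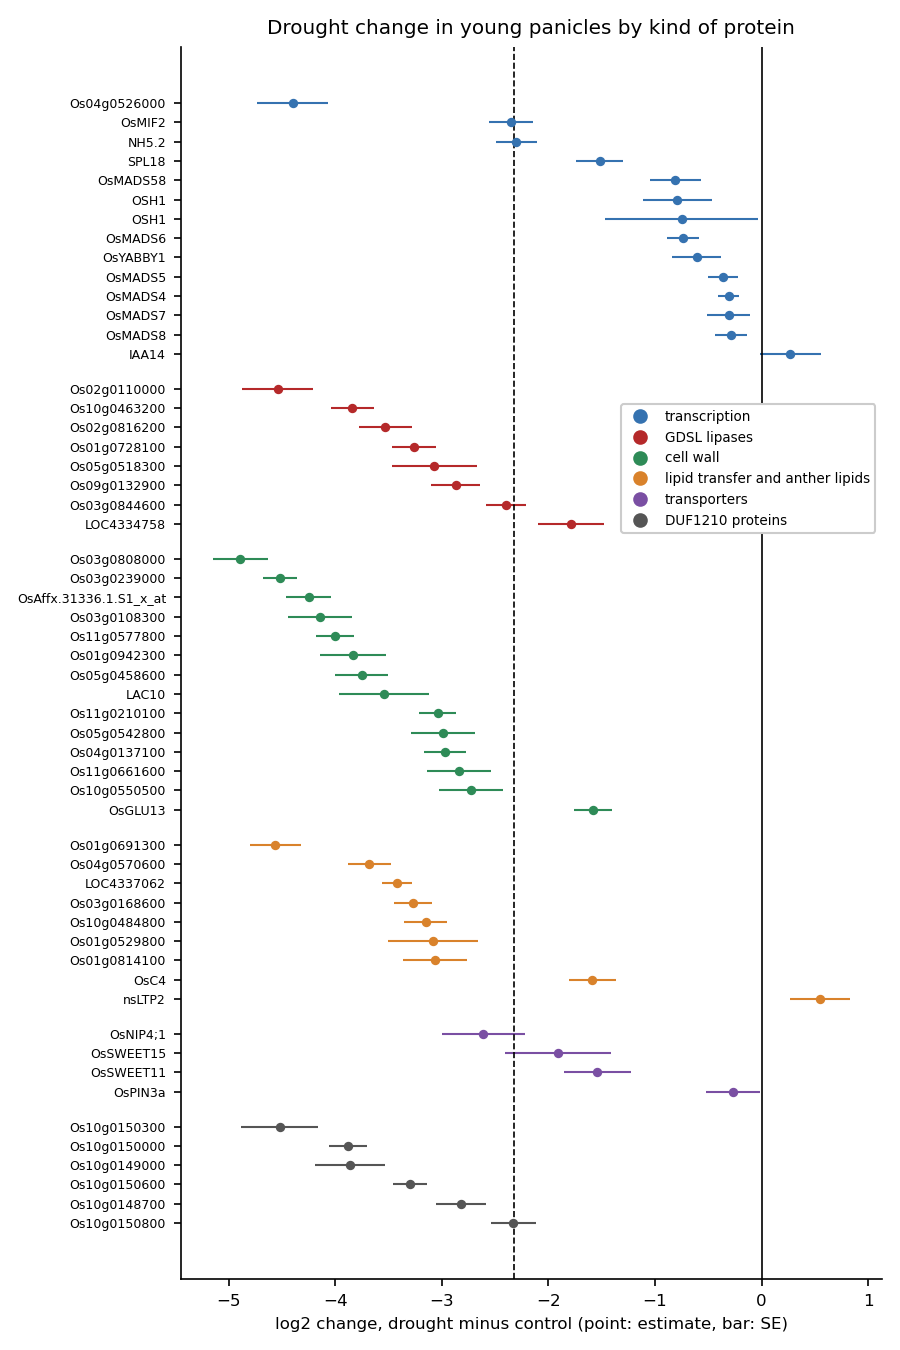
Drought change in young panicles of the probe sets of 6 kinds of protein, as log2 estimate (point) with its SE (bar) from 3 control and 3 drought arrays, with the 5-fold minimum as a dashed line. Transcription factors sit mostly between -1 and 0, while GDSL lipases, cell wall enzymes, lipid proteins and DUF1210 proteins sit mostly left of the dashed line. The kinds differ in how they were named, so they are not a fair comparison. Most of the latter kinds, but only 2 of the 14 transcription probe sets, are described in the supplementary tables of genes changed on these arrays.

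The 4 transporters differed among themselves. OsNIP4;1 went from 3316, 2266 and 2403 to 678.9, 165.2 and 714.9 (-2.61 ± 0.39, adjusted p = 4.73e-06), and came to -1.91 without the droughted panicle of replicate 2, under the fold minimum. The sucrose transporters OsSWEET15 and OsSWEET11 were lower at -1.91 ± 0.50 and -1.54 ± 0.31 (adjusted p = 0.0042 and 0.000293). OsPIN3a, an auxin efflux carrier, stayed at -0.27 ± 0.25 (adjusted p = 0.493).

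Further called genes fell outside these kinds. Os04g0543700, described as a meiotic serine proteinase, and Os01g0868900, with the propeptide domain of subtilisin proteases, changed by -4.38 ± 0.22 and -4.17 ± 0.22. OsCCD8a, a carotenoid cleavage dioxygenase of the strigolactone pathway, changed by -3.19 ± 0.39. TAC1, known for the control of tiller angle, went from 564.1, 792 and 809.5 to 54.97, 43.28 and 68.11 (-3.71 ± 0.26). OsPP2C73, a protein phosphatase, changed by -2.57 ± 0.29. By contrast Cht7, a chitinase, stayed high, with 7779, 7615 and 8549 in control and 7303, 6938 and 7081 in droughted panicles (-0.17 ± 0.13, adjusted p = 0.426).

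At the other end, 7 probe sets were higher at an adjusted p under 0.05, none by 5-fold. The largest difference was that of Os.9663.1.S1_at, with 1057, 1103 and 1393 in control and 3726, 1869 and 3430 in droughted panicles (1.29 ± 0.21). Both probe sets of LOC4330584 were higher (adjusted p = 0.00496 and 7.6e-05), and the others were Os.7511.1.S1_at, OsAffx.13543.1.S1_s_at, LOC4341275 and LOC4324732. None of these has a description in the sources used here. In all, 79 of the 194 changed by less than 2-fold in young panicles, where 51118 of 57258 rice probe sets did. In all 6 comparisons of drought with control 52 of the 194 did so, and the share over all probe sets was not computed.

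Members that lie side by side on a chromosome did not always move together. Of the 145 matched genes, 34 had another within 10 genes in the order of the reference annotation, in 15 stretches. The largest held 5 genes on chromosome 10 within a span of 6 genes: LOC4348119 to LOC4348123. Of its 7 probe sets 5 were called lower, from -2.33 to -4.52, and those of LOC4348120 and LOC4348122 were lower at -1.78 and -1.81 without reaching the fold minimum. A stretch of 3 genes lies shortly before it, in which Os10g0148700 changed by -2.82 ± 0.23, while LOC4348109 and LOC4348110 changed by -0.13 ± 0.15 and -0.33 ± 0.14 (adjusted p = 0.614 and 0.0848).

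The supplementary tables describe 6 panicle-enriched probe sets as DUF1210 proteins, a family named for a domain of unknown function. All 6 carry identifiers of chromosome 10, and all 6 were called lower, with a median of -3.58. Those tables list genes changed on these arrays, and 56 of the 58 probe sets they describe were called lower. That all 6 were called thus follows largely from how they were named. Os10g0150600 went from 3716, 3409 and 3810 to 477.2, 271.2 and 389.1 (-3.30 ± 0.16), and Os10g0149000 from 2763, 2109 and 2129 to 212, 82.5 and 230.2 (-3.86 ± 0.33). Of the 6, 1 carries a suffix for shared probes, and binding across related copies was not tested. For LOC4348123 both probe sets were called lower, at -2.33 and -3.70, and the smaller of the changes came to -2.22 without drought replicate 2 and to -2.18 without control replicate 1. Over the set, 12 genes had several probe sets. The probe sets agreed in their call for 10 of them and differed for 2. The 10 include LOC4337062, for which the gene of the probe set at -3.27 is unsettled.

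Drought arrays took no part in the choice of the set, and they gave the measure that could be tested. In droughted plants, 147 of the 194 (75.8%) were still at least 5-fold higher in young panicles than in every one of the 5 leaf and root groups, each at an adjusted p under 0.05, where 0.959% of all rice probe sets were. A further 19 passed against 1 to 4 of the groups and 28 against none. The counts against single groups were alike, from 156 for roots at panicle elongation to 160 for roots at tillering and leaves at tillering. All 28 that passed against none were among the 63 called lower. Of the 63, 24 still passed against all 5, and of the other 131, 123 did. The droughted panicle values that called the 63 also enter these contrasts, so this division is a description and not a test.

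The margin of droughted young panicles over the highest droughted leaf or root group had a median of 4.28 on the log2 scale, against 5.35 on the control arrays that set it. It was 1.62 for the 63 and 4.79 for the other 131, a gap that follows largely from the call, which used the same droughted panicle values. The margin stayed above 0 for 190 of the 194, and 109 of the 194 were also in the top 200 when the same margin was taken on droughted arrays. For 4 the margin was at or under 0: OsSWEET15 at -2.08, Os10g0524500 at -0.92, Os05g0542800 at -0.23 and Os02g0308400 at -0.02. Os10g0524500 and Os02g0308400 had fallen to the level of the other organs, while OsSWEET15 and Os05g0542800 were also higher in droughted leaves.

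**Figure D4:**
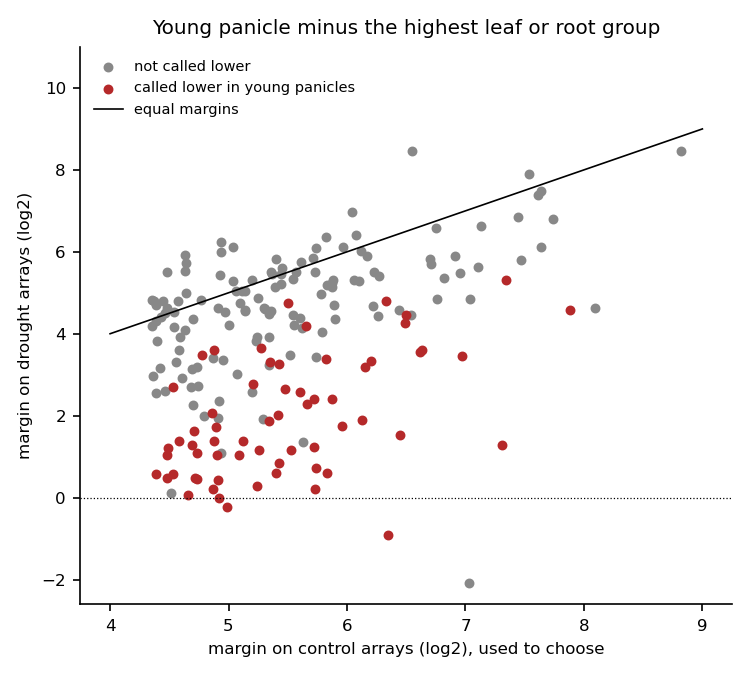
Margin of young panicles over the highest leaf or root group, on control arrays (x axis, which chose the set) and on drought arrays (y axis), in log2 units for the 194 probe sets. The 63 called lower in young panicles (red) have a median of 1.62 on drought arrays and the others (grey) a median of 4.79, and 4 probe sets lie at or under 0. The call and the y axis share the droughted panicle values, so the colours do not test the margin.

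Outside the panicle the same probe sets moved little. In leaves at booting 6 were called higher and 0 lower (1.22% and 0.671% of all probe sets), in leaves at panicle elongation 7 and 0 (2.62% and 3.55%), and in leaves at tillering 5 and 4 (0.639% and 1.11%). In roots 3 and 0 were called at panicle elongation (1.12% and 0.966%) and 1 and 1 at tillering (0.744% and 1.37%). Medians lay between -0.13 and 0.05. Most of these values were low, with a median intensity of 20.4 to 27.2 on each leaf and root array, where a small signal gives an unsure fold. In all, 14 probe sets were called in at least 1 leaf or root comparison, 59 in young panicles alone and 121 in no comparison. The rule keeps the set low in control leaves and roots, which left little room to fall there. The count in young panicles alone is thus partly built in, and shares over all rice probe sets were not computed for these counts.

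The rises in leaves were few and large. OsSWEET15 went in leaves at booting from 11.3, 16.3 and 10.9 to 1498, 1537 and 1783 (6.99 ± 0.50, 127-fold, adjusted p = 1.01e-11) and in leaves at panicle elongation from 18.2, 14.2 and 19.7 to 2650, 3055 and 2857 (7.37 ± 0.50, 166-fold). It rose less in leaves at tillering (4.43 ± 0.50) and in roots at panicle elongation (4.12 ± 0.50), where its droughted plants ranged from 156.2 to 808.6 and from 120.2 to 521.2. In roots at tillering the difference of 2.20 ± 0.50 lay under the fold minimum (adjusted p = 0.0012). Droughted leaves at both later stages thus read above droughted panicles, at 814.1, 445 and 840. By limma the droughted panicles differed from droughted leaves by -2.08 ± 0.50 at panicle elongation (adjusted p = 0.00092). At booting the difference was -1.25 ± 0.50 and did not pass (adjusted p = 0.0545). Neither reached the fold minimum.

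nsLTP2 rose in leaves at booting from 83.9, 231 and 85.6 to 3172, 2191 and 2902 (4.52 ± 0.28) and at panicle elongation from 118.6, 118.7 and 108.2 to 6198, 6270 and 6078 (5.75 ± 0.28, 53.7-fold). The latter level is close to that of droughted panicles. It also rose in leaves at tillering (2.39 ± 0.28) and in roots at panicle elongation (2.95 ± 0.28). The call in leaves at tillering sat at the fold minimum and was lost when any of 3 arrays was left out.

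OsAffx.13543.1.S1_s_at, which has no gene or description in the sources used here and carries the suffix for shared probes, rose in all 5 leaf and root groups, from 3.29 ± 0.25 in leaves at tillering to 5.89 ± 0.25 in roots at panicle elongation. In roots at panicle elongation it went from 22.4, 18.5 and 20.4 to 1440, 1202 and 1011. Os04g0690500, a conserved hypothetical protein, was called higher in the 3 leaf comparisons and in neither root comparison, by 3.98 ± 0.25 at booting, 3.51 ± 0.25 at panicle elongation and 2.46 ± 0.25 at tillering. At booting it went from 11.7, 21.2 and 13.3 to 211.7, 267.1 and 230.1, and in young panicles it differed by 0.13 ± 0.25. With the floor at the 25th percentile its rises at panicle elongation and tillering came to 2.29 and 2.02.

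Other rises were in fewer groups or at low levels. Os05g0542800, a glycoside hydrolase of the pectin-cutting family 28, rose in leaves at panicle elongation from 5.81, 7.87 and 6.35 to 117.2, 145.8 and 78.7 (4.06 ± 0.30), and fell in young panicles (-2.99 ± 0.30). With the higher floor its rise was 1.96. IAA14 went in the same leaves from 3.27, 4.67 and 2.05 to 23.7, 40.9 and 30.0 (3.29 ± 0.29), all under the median of all values. Os.2322.1.S1_at rose in leaves at booting and at panicle elongation, and LOC4342640 in leaves at booting. LOC4343894, which the supplementary tables tie to more than 1 gene, rose in leaves at tillering (2.47 ± 0.29) and fell in young panicles (-3.74 ± 0.29).

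**Figure D5:**
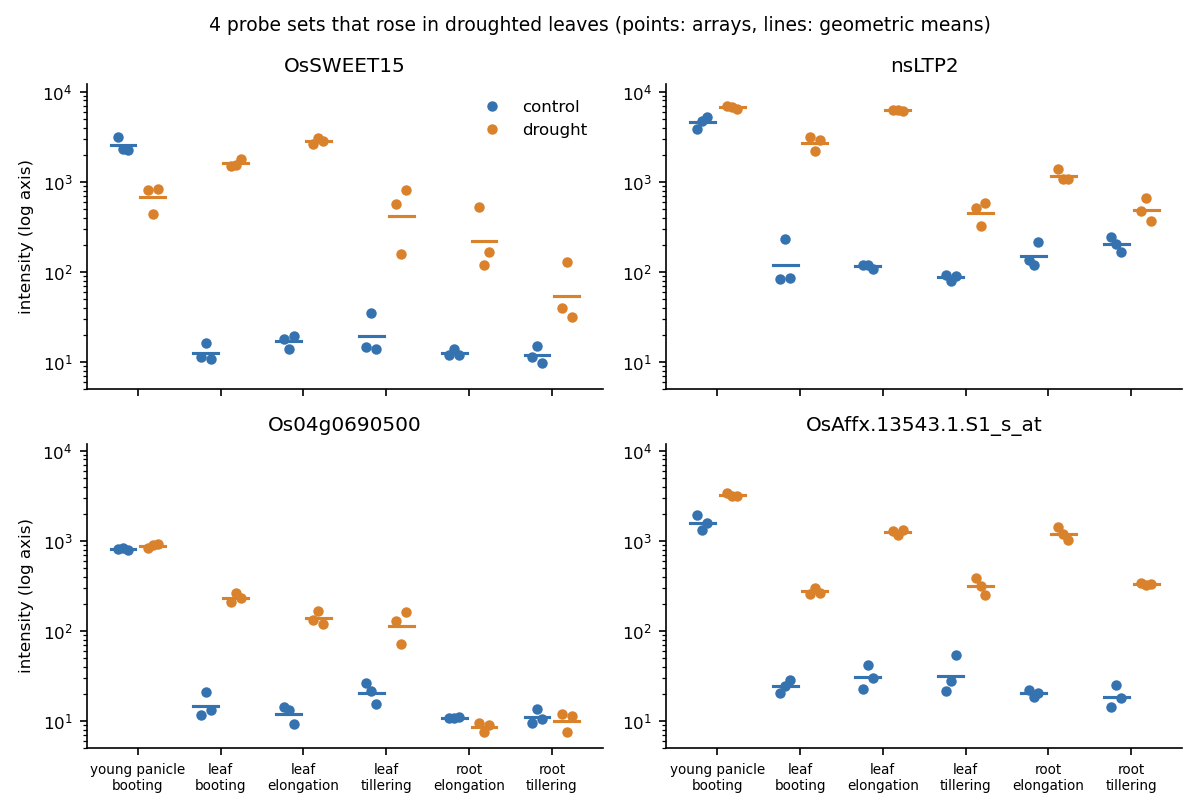
Intensity (log axis) of 4 panicle-enriched probe sets on all 36 arrays, control in blue and drought in orange, with points for arrays and lines for geometric means of 3 arrays. OsSWEET15 in leaves at booting lies at 10.9 to 16.3 in control and 1498 to 1783 in droughted plants, while its young panicle values are lower under drought.

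Falls outside the panicle were called for 4 probe sets in leaves at tillering and for 1 in roots at tillering. The pectate lyase Os04g0137100 went in leaves at tillering from 158.8, 111.8 and 111 to 18.2, 22.1 and 17.3 (-2.72 ± 0.20), and was also called lower in young panicles. With the floor at the 25th percentile its leaf change came to -2.15. The others were LOC4335013 (-2.68 ± 0.22), LOC4338021 (-2.43 ± 0.30) and LOC4336091 (-2.35 ± 0.24). In roots at tillering Os.5682.1.S1_at changed by -2.55 ± 0.26, from 53.3, 25.8 and 29.5 to 5.59, 6.57 and 5.45. No probe set was called in the same direction in young panicles and in 3 or more of the other comparisons.

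The difference between the organs was tested at booting, where leaves and young panicles had both been taken. The drought change was lower in young panicles than in leaves for 63 of the 194 and higher for 0, where 1.78% and 0.714% of all rice probe sets were called. Of these 63, 51 were among the 63 called lower in young panicles, and the median difference was -1.45. Control panicle arrays enter this contrast too. The rule also keeps the set low in control leaves, with medians of 23.03 to 25.65 on the arrays at booting, so that leaves had little room to fall. The contrast therefore largely repeats the panicle change, whose median was -1.45 as well. OsSWEET15 had the largest difference of the set, at -8.90 ± 0.71 (adjusted p = 2.02e-10).

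Probe sets enriched in leaves or roots by a rule of the same kind also fell in their own organ. Of 200 leaf-enriched probe sets, 26, 114 and 50 were called lower in leaves, in the order tillering, panicle elongation, booting. Of 200 root-enriched probe sets, 110 and 87 were called lower in roots at tillering and panicle elongation. In young panicles 0 of the 200 leaf-enriched and 0 of the 200 root-enriched were called lower, with 5 and 4 called higher. Over all rice probe sets 0.995% were called lower there and 0.648% higher. The choice places control panicle levels of both sets under those of their own organ, which left less room for a fall there. The control arrays chose these sets as well, so that the counts stand side by side with no test between them.

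Lists drawn up by name gave the setting in young panicles over all rice probe sets. By symbol or by words in descriptions, 28 of 100 cell wall probe sets were called lower and 7 higher, 6 and 1 of 16 lipid transfer, 5 and 1 of 7 protease, 4 and 0 of 43 cytochrome P450, 5 and 0 of 85 kinesin and cell cycle, 8 and 7 of 170 transcription factor, and 2 and 6 of 9 pollen allergen and profilin probe sets. The list of chalcone synthase-like and sporopollenin enzymes matched a single probe set, called lower. Descriptions come from tables of genes changed on these arrays, so that such shares are not independent of drought. Panicle-enriched probe sets made up 5 of the cell wall list, 3 of the lipid transfer list, 8 of the transcription factors, 2 of the proteases and 2 of the cytochrome P450 genes, and none of the remaining lists.

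Marker lists of other tissues were followed in the same panicles. The 10 leaf marker probe sets had a summed level of 28393 to 31175 in control and 19591 to 23966 in droughted panicles, with 0 called and a median change of -0.41. For 12 probe sets of meiosis the sums were 991 to 1201 and 1496 to 1664, with 0 called and a median of 0.12. Those matched by the ambiguous symbols ZEP1 and ZIP4 went from means of 217.6 to 388 and 219.6 to 425. Both read higher in control leaves than in control panicles. Others fell, such as MEL1 from 167.9 to 91.53, so that the sums do not stand for meiosis genes as a whole. The 7 root probe sets summed to 604 to 739 and 303 to 404, with 1 called lower. The 9 matched to the tapetum list, several of them through ambiguous synonyms, summed to 6912 to 7860 and 5966 to 6736. Among them 1 was called lower (AP25, an anther protease, at -2.75 ± 0.26), from a mean of 3870 to 623.8. Against this, the brightest probe set matched by OSCP1 went from 2288 to 4532. That probe set read higher in control leaves and roots, at 5593 to 7162. The tapetum sums therefore do not stand for tapetum genes as a whole. No probe set of these lists had all its values under 1. The part of tissue mixture in the falls of the panicle-enriched probe sets was not tested.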

How the data were processed

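The 36 arrays were assigned to 12 groups of 3 by their deposited labels. The authors made CEL files with GCOS, and dChip then scaled the arrays to an invariant set of probes. The deposited values are 1 linear intensity for each probe set. The dChip version and any mismatch subtraction are not given in the sources used here. Such scaling makes all changes relative to probe sets of stable rank. Detection calls were not analysed here, and low intensities carry little precision. The number of arrays limits the precision.

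The 123 control probe sets were dropped, values under 1 were set to 1 (936 of all values, 15 of the panicle-enriched) and log2 was taken. Groups were compared with limma 3.58.1 in R 4.3.3, with 1 mean per group, 24 residual and 3.76 prior degrees of freedom, and Benjamini-Hochberg adjusted p over all 57258 rice probe sets. The fit was tested on simulated data. Errors printed as ± are standard errors of the fit.

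Names came from the platform annotation through a reference gene table (ASM3414082v1), then from the study's supplementary tables. Neighbours were read from gene order. Named probe sets were, among those with a name or description, the 12 with the highest margin, the 12 called with the largest rise and fall in young panicles, those on the lists of floral organ identity, tapetum and pollen wall, meiosis, leaf and root genes, and the 3 with the largest rise and fall in each leaf or root comparison. The 4 either side of the threshold, the 3 with the largest control spread and any called alike in panicles and 3 or more other comparisons were added. Others were named after their values had been seen. The members and lists were chosen with earlier results of these data known. All columns were used. Labels call the 3 arrays of a group biological replicates.

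Other settings tried were a 2-fold minimum, the t-test of the study's methods (raw and adjusted p), a fit to each comparison by itself, a trended prior, low values raised to the 25th percentile, dim probe sets dropped, median centring, quantile normalization, a block for the replicate number, single arrays left out, no shared probe sets, 1 probe set per gene and other choices of members.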

Additional observations from a re-analysis of the deposited data

Results flagged for a closer look

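The drought change differed between young panicles and leaves at booting, by the interaction contrast of limma, for 63 of the 194 probe sets, all with the lower change in young panicles. The control panicle arrays both chose the set and enter this contrast, and the rule keeps the set low in control leaves, which had little room to fall.

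All 6 probe sets called higher in droughted leaves at booting had a lower change in young panicles by the same contrast. They were picked by the leaf rise that this contrast subtracts, so the direction was largely set in advance. The differences below are a description and not a test. OsSWEET15 had the largest difference, -8.90 ± 0.71 on the log2 scale (limma adjusted p = 2.02e-10), with a change of 6.99 in leaves and -1.91 in young panicles. For nsLTP2 the difference was -3.97 ± 0.39 and for Os04g0690500 -3.86 ± 0.35. For Os.2322.1.S1_at it was -3.11 ± 0.37, for LOC4342640 -2.87 ± 0.45 and for OsAffx.13543.1.S1_s_at -2.49 ± 0.35. In young panicles the last of these differed by 1.01.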

How the results depend on the processing

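The count of 63 probe sets called lower in young panicles came to 107 with a 2-fold minimum (5 then higher), and to 18 of the 63 probe sets left by the filter on dim probe sets, with a median of -1.02. Under that filter the count enriched over all 5 droughted groups was 46, and 19 had a lower change in panicles than in leaves, because fewer probe sets were tested. With the 2-fold minimum the latter count was 107 lower and 4 higher. Of the top 400, 1 was called higher in young panicles, and 2 were 5-fold higher when control array 1 was kept out of the choice. In leaves and roots 9 probe sets were called higher and 5 lower in at least 1 comparison. These came to 32 and 36 with the 2-fold minimum, 5 and 3 under the dim filter and 5 and 2 with the floor at the 25th percentile, where low values are raised. Of those lower, 3 were left under median centring and 3 under quantile normalization. Centring shifted every change by 0.03 in young panicles and by 0.15 in leaves at tillering, the most of the 6 comparisons.

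With each array left out in turn, 54 to 69 probe sets were lower in young panicles and 0 higher, and the median was -1.56 to -1.25. The lowest count, 54, came without the droughted panicle of replicate 2, where 9 calls were lost, against 3 without control replicate 1 and 1 without control replicate 3. Enrichment over all 5 droughted groups held for 145 to 150, and the change was lower in panicles than in leaves for 60 to 70. In leaves and roots 8 to 10 were higher and 3 to 6 lower, the count of 3 without the control leaf of replicate 2 at tillering. The change of LOC4341367, not called, was -1.35 without control replicate 1, and turned positive under quantile normalization (0.05) and without control replicate 2 (0.44), control replicate 3 (0.58) or drought replicate 2 (0.15) of the young panicles.

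Same-numbered control and droughted arrays did not deviate together by the rule used: in no comparison were all 3 correlations over 0.1, and in young panicles they were -0.01, -0.11 and -0.04. In leaves at booting alone every array correlated best with its own number. With the replicate number as a block the counts stayed at 63 lower in young panicles, 147 enriched over all 5 droughted groups, 9 higher and 5 lower in leaves and roots and 63 with a lower change in panicles than in leaves, and no call of a named probe set changed. With all arrays kept, 91 recomputed counts and medians stayed within 1.5 times or the replicate spread and 18 did not. The causes were not tested beyond what each setting changes.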
